A study of Drosophila melanogaster with 11 samples.

Results

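Cells with UMIs (unique molecular identifiers, each counted as 1 captured transcript) of Idgf4 or Obp56a were examined in the Drosophila wing imaginal disc. They were taken as cells of its squamous peripodial membrane, a label that rests on few UMIs beside those of Idgf4 and Obp56a. Idgf4 (FBgn0026415, X:9927973-9930948, minus strand, BDGP6.54) encodes a secreted imaginal disc growth factor of the chitinase-like family, and Obp56a an odorant-binding protein. A cell was chosen when its Idgf4 and Obp56a UMIs summed to at least 3 and its UMIs of the myoblast genes Him, zfh1 and twi to at most 1, among barcodes with 200 to 2500 detected genes. The rule found 90 of 22041 cells in 8 wild-type libraries, a share of 0.408%, all with an Idgf4 UMI and 38 with an Obp56a UMI. These 90 are called Idgf4+Obp56a cells, after the summed UMIs. They were set against 9910 other epithelial cells of the same libraries, which had at least 2 UMIs of Fas3, grh, ImpE1 and ImpE2, more than 2 times as many of these as of Him, zfh1, twi and CG9650, and no UMI of Idgf4 or Obp56a.

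Wing discs of wandering larvae of the last instar raised at 25 °C were dissected, the pouch was cut away, and the remaining notum and hinge with their adult muscle precursors were dissociated and profiled by Drop-seq, a droplet method that tags each transcript with a cell barcode and a UMI. Every group carried P{1151-GAL4}, a driver active in the myoblasts and not aimed at the epithelium described here. The 3 libraries labelled 1151>Ama-RNAi (replicates 1, 4 and 5) also carried the hairpin P{TRiP.Ama_HMS00297}attP2 against the adhesion gene Amalgam, the 4 libraries of 1151>mCherry-RNAi (replicates 5 to 8) carried the control hairpin P{VALIUM20-mCherry}attP2, and the 4 libraries of 1151-GAL4 (replicates 1 to 4) carried the driver alone. The 1151>mCherry-RNAi and 1151-GAL4 libraries are the 8 wild-type ones, and the labels do not say how many larvae went into a library.

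The wing disc is a flattened epithelial sac. Its columnar face, the disc proper, forms most of the adult wing and thorax, and its opposite face is a thin sheet of large, flat cells, the peripodial membrane. Peripodial cells secrete signals towards the disc proper, and during eversion they contract, take part in the opening of the sac and later leave the epithelium. Ubx and the odd-skipped family genes drm and sob are known for expression in parts of this sheet.

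The wild-type libraries held between 1335977 and 10548893 UMIs and between 697 and 6956 cells. Of the 26066 distinct cell barcodes over all 11 libraries, 19 occurred in more than 1 library, and no barcode of an Idgf4+Obp56a cell did. Idgf4+Obp56a cells had 309 to 12751 UMIs with a median of 1421, against 236 to 15480 with a median of 879 in other epithelial cells, and their median was the higher one in 7 of 8 libraries. The median share of mitochondrial UMIs per cell was also higher in 7 of 8 libraries, ranging over libraries from 1.40% to 7.09% in Idgf4+Obp56a cells and from 0.625% to 4.82% in other epithelial cells. No doublet caller was run. More than 2 times the median UMIs of their library were found in 46.7% of the Idgf4+Obp56a cells and in 29.8% of the other epithelial cells. The part of depth, mitochondrial share or doublets in the results was not tested beyond the values given with them.

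All 90 cells had an Idgf4 UMI and 38 of them an Obp56a UMI. Idgf4 ranged from 1 to 86 UMIs per cell with a median of 5, and Obp56a from 0 to 12 with a median of 0. At the threshold, 19 cells held exactly 3 UMIs of the pair, whereas 53 cells just outside held 2 and 281 held 1. The Idgf4+Obp56a cells carried 56.9% of the 1129 Idgf4 UMIs and 53.1% of the 241 Obp56a UMIs in all cells. The rule used these values, which are given as a description. An Idgf4 UMI was present in 0.559% of 3933 myoblast cells (at least 3 UMIs of Him, zfh1 and twi, median 951 UMIs per cell) and in 2.17% of all cells that passed the epithelial gate (median 895 UMIs), and an Obp56a UMI in 0.102% and 0.707% of the same cells. Whether the UMIs in myoblast cells came from free RNA, doublets or the cells themselves was not tested. A further 6 cells with 3 or more UMIs of the pair were left out for their myoblast UMIs.

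The epithelial genes of the gate were not a condition for the Idgf4+Obp56a cells. Only 39 of them (43.3%) would have passed the epithelial gate, and 36 had no UMI of Fas3, grh, ImpE1 or ImpE2. Summed over cells, Fas3, which encodes a septate junction adhesion protein, had 547 CPM (UMIs of the gene per 1000000 UMIs) in Idgf4+Obp56a cells, and grh, an epithelial transcription factor gene, had 408 CPM, against 1051 and 1036 CPM in other epithelial cells, which were chosen for these genes. Of the myoblast genes, zfh1 had 0 UMIs in the Idgf4+Obp56a cells, Him 6, twi 2 and CG9650 2.

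Idgf4+Obp56a cells were found in every library, in small numbers. Among libraries labelled 1151>Ama-RNAi the share of all cells was 0.579%, 0.350% and 0.428% in replicates 1, 4 and 5. In 1151>mCherry-RNAi replicates 5 to 8 it was 0.143%, 0.731%, 0.221% and 0.316%, and in 1151-GAL4 replicates 1 to 4 it was 0.684%, 0.417%, 0.530% and 0.302%. The groups overlapped, and single shares were imprecise, the exact 95% binomial interval of 1151>mCherry-RNAi replicate 5 (1 cell of 697) running from 0.00363% to 0.797%. The share averaged 0.353% ± 0.262 in 1151>mCherry-RNAi and 0.483% ± 0.163 in 1151-GAL4 libraries (SD, n = 4 each), a difference of -0.130 percentage points that did not exceed the spread of libraries (2-sided exact permutation test, p = 0.457, the smallest possible being 0.0286). Libraries labelled 1151>Ama-RNAi averaged 0.453% ± 0.116 (SD, n = 3) and wild-type libraries 0.418% ± 0.214 (SD, n = 8), which differed by 0.0346 percentage points (2-sided exact permutation test, p = 0.794, the smallest possible being 0.00606). The denominators are unlike, since myoblast cells made up 0.322% to 1.22% of cells in the former and 4.97% to 24.7% in the latter. Among Idgf4+Obp56a and other epithelial cells only, the averages were 0.692% and 1.02%, the other direction (2-sided exact permutation test, p = 0.424). Counting intervals cover counting error only.

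**Figure D1:**
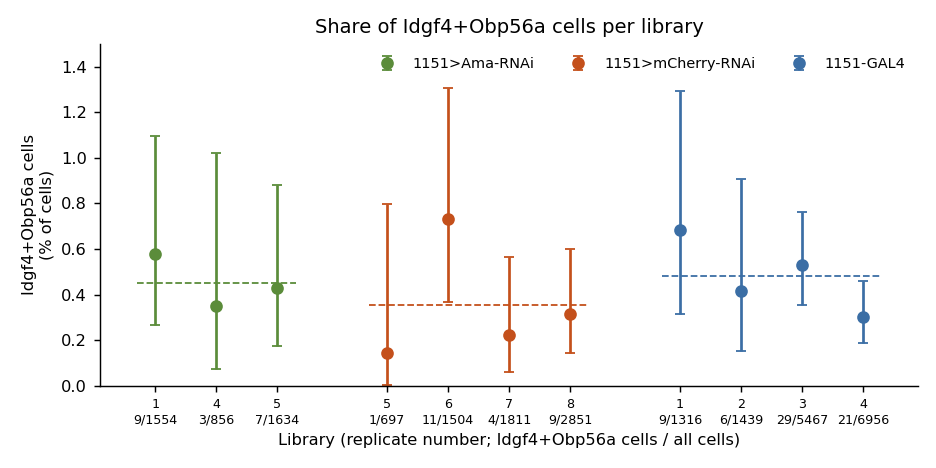
Share of Idgf4+Obp56a cells among all cells (%, y axis) in each library (x axis, replicate number with cell counts below), with exact 95% binomial intervals as bars and the group mean as a dashed line. The means of the 3 groups, 0.453%, 0.353% and 0.483%, lie inside the range of single libraries, 0.143% to 0.731%.

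For the comparison of genes, UMIs were summed per library and class. 1151-GAL4 replicate 3 (29 Idgf4+Obp56a cells), 1151-GAL4 replicate 4 (21 cells) and 1151>mCherry-RNAi replicate 6 (11 cells) each formed a unit, and the 5 libraries with fewer than 10 such cells formed a pooled unit (29 cells), in which order values per unit are given below. The Idgf4+Obp56a cells of these units held 77071, 47870, 9695 and 72521 UMIs. One UMI of the 9695 in 1151>mCherry-RNAi replicate 6 therefore weighs 103 CPM, and single values there are coarse. The 10 gate genes were left out of the totals and of the fit. Of 3455 genes tested with edgeR's quasi-likelihood test (unit as a block, Benjamini-Hochberg adjusted p below 0.05), 212 genes, or 6.14%, were called higher in Idgf4+Obp56a cells, and 180 genes, or 5.21%, were called lower. The median log2 fold change over all tested genes was -0.17. Every unit of Idgf4+Obp56a cells lay above every unit of other epithelial cells in 7.55% of tested genes and below in 9.38%. Because the 2 classes were chosen on UMIs of other genes in the same cells, genes that vary together with the gate genes are part of this contrast.

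The largest increases were in 2 genes for chitin-binding cuticle proteins. Cpr49Ac (FBgn0033725, 2R:12386666-12390057, plus strand) had 4087, 5724, 3198 and 2289 CPM in the 4 units of Idgf4+Obp56a cells, against 13.7, 18.6, 30.9 and 14.7 CPM in other epithelial cells. Its 786 UMIs were spread over 67 of the 90 cells (74.4%), whereas 1.35% of other epithelial cells had a UMI, and its log2 fold change was 7.55 ± 0.29 (SE; edgeR quasi-likelihood test, adjusted p = 1.54e-140). Cpr65Ec (FBgn0035737, 3L:7093204-7093841, plus strand) had 960, 564, 206 and 124 CPM in Idgf4+Obp56a cells, against 2.40, 1.51, 1.29 and 0.902 CPM, a log2 fold change of 8.15 ± 0.42 (edgeR, adjusted p = 3.46e-79). Every unit was far above its other epithelial cells for both genes, but Cpr65Ec was confined to fewer cells. Its 112 UMIs lay in 16 cells (17.8%), 33 of them in 1 cell.

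Other genes among the 20 largest increases encode channels, transporters, matrix and oxidase proteins. Mp (FBgn0260660, 3L:6998843-7053499, plus strand), the multiplexin collagen of the basement membrane, had 376, 418, 309 and 359 CPM in Idgf4+Obp56a cells and 16.1, 18.5, 15.4 and 25.9 CPM in other epithelial cells, with a log2 fold change of 4.13 ± 0.34 (edgeR, adjusted p = 1.52e-30). Its 4 units lay closer together than those of any cuticle gene named above. The aquaporin gene Drip had 169, 41.8, 413 and 82.7 CPM in Idgf4+Obp56a cells, against 1.92, 1.32, 3.86 and 1.58 CPM (log2 fold change 5.85 ± 0.56, edgeR adjusted p = 1.06e-22), from 25 UMIs in 15 cells. Oatp74D, which encodes an ecdysone importer, had 856, 2089, 413 and 703 CPM in Idgf4+Obp56a cells and 131, 150, 94.0 and 88.4 CPM in other epithelial cells (log2 fold change 2.95 ± 0.24, edgeR adjusted p = 6.46e-31). A UMI of Oatp74D was found in 55.6% of Idgf4+Obp56a cells and in 12.9% of other epithelial cells.

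Widely detected among these 20 genes were also CG6357, CG9932 and Past1. CG6357 had 791, 1734, 619 and 841 CPM in Idgf4+Obp56a cells and 60.6, 91.9, 52.8 and 87.2 CPM in other epithelial cells, and was found in 62.2% and 8.47% of them. CG9932 (FBgn0262160, 2L:13021868-13060140, minus strand) had 856, 585, 722 and 1131 CPM, against 74.7, 69.3, 69.5 and 71.7 CPM in other epithelial cells, where its 4 units were nearly level. Past1, which encodes an EHD family protein of endocytic recycling, had 532, 877, 928 and 538 CPM in Idgf4+Obp56a cells and 59.6, 67.2, 103 and 83.0 CPM in other epithelial cells. The log2 fold changes of the 3 genes were 3.58, 3.40 and 3.01 (SE 0.24 to 0.25, edgeR adjusted p of 8.76e-32 or smaller). The Krüppel-like factor gene dar1 (log2 fold change 4.71), the paxillin gene Pax (3.37), the NADPH oxidase gene Nox (3.21), the cuticle gene Cpr12A (3.67) and the serpin gene Spn47C (3.88) were also among the 20, with CG9192 (6.26), CG7294 (5.91), CG13117 (5.82), CG1572 (4.31), CG10126, CG43897 (3.94) and CG5273 (3.05). All 20 had every unit of Idgf4+Obp56a cells above every unit of other epithelial cells. Each of the 20 was found in 11 to 67 cells.

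The 20 genes occurred together in single cells. Every Idgf4+Obp56a cell had a UMI of at least 1 of them, 82 of 90 (91.1%) of at least 3, and the median was 6 and the highest 16. Of the other epithelial cells, 63.8% had none and 3.90% had at least 3. The 20 genes were picked for their difference in these cells, which also had more UMIs (median 1421, against 879), so these shares are a description. All but 1 of the 16 cells with Cpr65Ec also had Cpr49Ac, which 67 cells had.

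**Figure D2:**
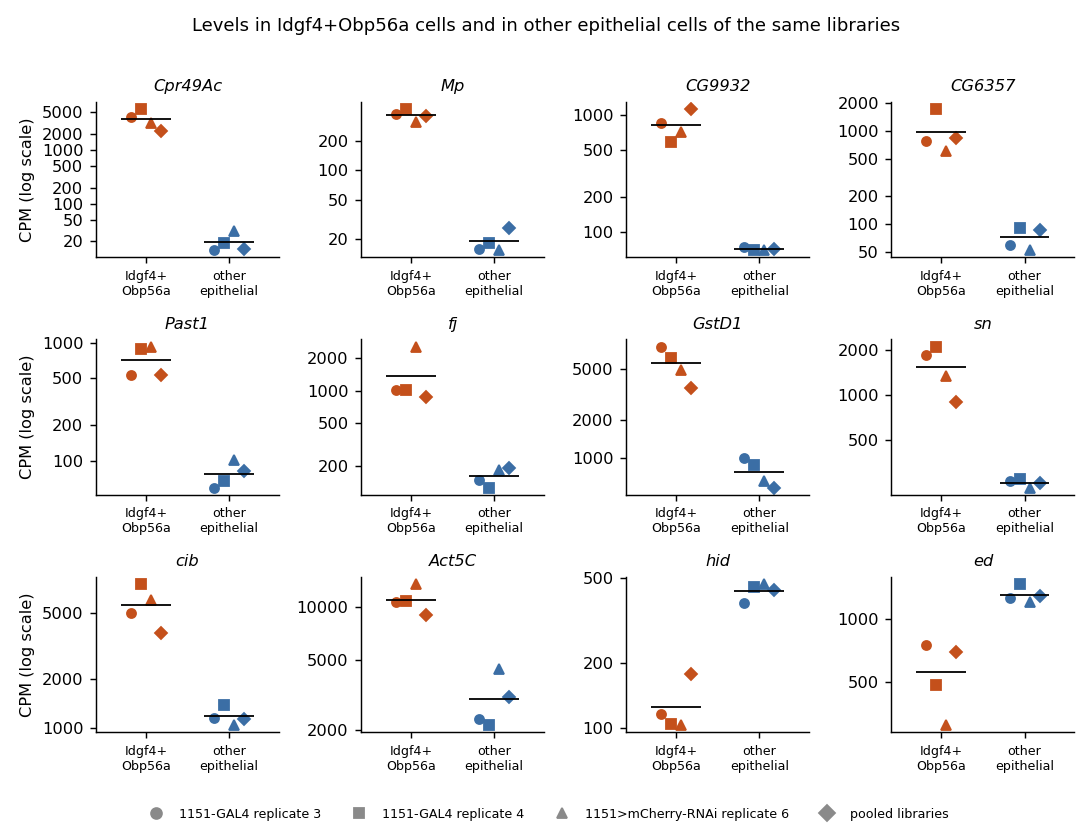
Levels of 12 genes (CPM, log scale, y axis) in Idgf4+Obp56a cells (orange, left) and other epithelial cells (blue, right) of the same units. Each point is 1 unit and the line the mean of 4; for Cpr49Ac the units span 2289 to 5724 CPM in Idgf4+Obp56a cells and 13.7 to 30.9 CPM in other epithelial cells, and for hid 103 to 179 CPM and 383 to 470 CPM.

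Genes known for the peripodial membrane that the rule did not use were examined next. Among them, the study itself used Ance to place its peripodial cluster PM_1, and drm and Antp for PM_2. Those clusters were drawn on these samples, so Ance, drm and Antp are not independent evidence. Of 8 listed, 7 could be tested, 4 were called higher and 3 were not called, and the list's median log2 fold change was 1.47. The Hox gene Ubx had 117, 104, 206 and 124 CPM in Idgf4+Obp56a cells, against 7.93, 18.5, 30.9 and 23.7 CPM in other epithelial cells (log2 fold change 2.69 ± 0.45, edgeR adjusted p = 1.15e-07). It was found in 21.1% of Idgf4+Obp56a cells and in 1.70% of other epithelial cells. The zinc finger gene drm had 182, 272, 516 and 276 CPM, against 55.5, 61.6, 144 and 61.1 CPM (1.81 ± 0.32, edgeR adjusted p = 6.09e-07), and its relative sob had 77.9, 83.6, 103 and 82.7 CPM, against 22.8, 21.5, 47.6 and 31.8 CPM (1.47, edgeR adjusted p = 0.0311). Ance, which encodes a secreted peptidase of the angiotensin-converting enzyme family, had 1116, 1358, 2682 and 938 CPM in Idgf4+Obp56a cells, against 293 to 324 CPM in other epithelial cells (1.88 ± 0.23, edgeR adjusted p = 2.27e-14). The call of sob was lost when any 1 unit was left out (edgeR adjusted p of 0.11 to 0.277). In each of these 4 genes all units of Idgf4+Obp56a cells were above all units of other epithelial cells. The homeobox genes Antp and hth and the phosphatase gene puc were not called, with log2 fold changes from -0.40 to 0.19 (edgeR), and odd, with 4 UMIs, was not tested. The 4 genes called higher are not particular to this sheet, since Ubx is also known from the trachea of the disc and Ance from the notum, and each of the 4 had no UMI in most of the Idgf4+Obp56a cells. The label of the cells as peripodial membrane therefore rests on few UMIs beside the rule's own genes.

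Both lists that the study drew for its own peripodial clusters were read out in the same fit. The study chose them on these samples, and they are not independent evidence of their direction. All 20 genes listed for its cluster PM_1 were called higher, with a median log2 fold change of 2.59, while of 13 listed for PM_2, 5 were called higher, 3 lower and 5 not called, with a median of 0.19. From the PM_1 list, GstD1 (FBgn0001149, 3R:12367817-12369268, minus strand), a glutathione S-transferase, had 7500, 6121, 4951 and 3558 CPM in Idgf4+Obp56a cells, against 1006, 893, 668 and 591 CPM in other epithelial cells (2.57 ± 0.23, edgeR adjusted p = 2.07e-27). It had a UMI in 97.8% of Idgf4+Obp56a cells. Reads of GstD1 and its relative GstD3 (log2 fold change 2.60), which lie in a cluster of similar genes, may be split by the counting. The Golgi kinase gene fj had 1025, 1024, 2579 and 869 CPM, against 149, 125, 181 and 189 CPM (2.68 ± 0.23, edgeR adjusted p = 1.54e-28), and the growth factor gene Pvf2 had 350, 397, 0 and 262 CPM, against 35.1, 57.8, 25.7 and 49.6 CPM (2.64 ± 0.34, edgeR adjusted p = 4.13e-13). In Pvf2 the unit of 1151>mCherry-RNAi replicate 6 had no UMI in Idgf4+Obp56a cells. From the PM_2 list, Phk-3 (-1.51), CG4914 (-1.59) and kek1 (-1.51) were called lower. The units of Phk-3 overlapped, and CG4914 lost its call without 1151-GAL4 replicate 3 (edgeR adjusted p = 0.229) or 4 (0.0762).

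Most tested genes of the actin cytoskeleton were called higher. The gene lists were chosen with earlier results of these data known, and Act42A, zip and cib are also in the PM_1 list. Over all tested genes, 6.14% were called higher and 5.21% lower, which stand beside the counts of this list and those below. Of 24 tested, 16 were called higher and 8 were not called, the median log2 fold change was 1.11 against -0.17 over all genes, and the list's summed level was 38251 to 62403 CPM per unit in Idgf4+Obp56a cells and 14110 to 21476 CPM in other epithelial cells. Act5C, a cytoplasmic actin gene found in all 90 cells and in 83.0% of other epithelial cells, had 10679, 10925, 13615 and 9101 CPM, against 2304, 2126, 4463 and 3083 CPM (1.72 ± 0.22, edgeR adjusted p = 6.66e-13). Act5C and Act42A (1.81) encode nearly identical proteins, and reads shared between actin genes may be split by the counting. The bundling protein fascin, encoded by sn, had 1855, 2110, 1341 and 896 CPM in Idgf4+Obp56a cells and 264, 272, 239 and 257 CPM in other epithelial cells (2.36 ± 0.24, edgeR adjusted p = 4.08e-21). In every unit the level of sn was above all those of other epithelial cells, which ran from 239 to 272 CPM.

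Further actin genes called higher were zip, the heavy chain of non-muscle myosin II (log2 fold change 1.63), cib, an actin-binding beta-thymosin (1.96), cher, filamin (2.47), Fim, fimbrin (1.95), chic, profilin (0.95), and tsr, cofilin (0.86). The nesprin gene Msp300 was called higher with a smaller difference (0.77, edgeR adjusted p = 0.00498), and its units overlapped. Calls of the small differences depended on single units. That of Msp300 was lost without 1151-GAL4 replicate 3, 1151-GAL4 replicate 4 or 1151>mCherry-RNAi replicate 6 (edgeR adjusted p of 0.126 to 0.24), that of tsr without either 1151-GAL4 replicate or the pooled unit (0.053 to 0.147), and that of chic without 1151-GAL4 replicate 4 (0.099). Genes for cell junctions and polarity did not share this pattern. Of 25 tested, only ed was called, as lower, and the list's median was 0.13.

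Of 13 tested genes for chitin and cuticle, 5 were called higher and 8 not, with a median of 0.36. The list does not hold Cpr65Ec. Besides Cpr49Ac and Cpr12A, those called were serp, a chitin deacetylase (log2 fold change 2.45), Gasp, a chitin-binding matrix protein (2.79), and Cht3, a chitinase (0.96), which lost its call without either 1151-GAL4 replicate or the pooled unit (edgeR adjusted p of 0.0546 to 0.121). Gasp had 324, 167, 103 and 124 CPM in Idgf4+Obp56a cells, against 34.4, 19.2, 24.5 and 23.9 CPM (edgeR adjusted p = 4.55e-11). The other measured genes of the Idgf family summed to 1 UMI in Idgf4+Obp56a cells and the other odorant-binding protein genes to 2 UMIs, and none of them could be tested.

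Of 11 tested basement membrane and matrix genes, Mp, tnc and the beta integrin gene mys (0.98) were called higher, pio lower and 7 not called, with a median of 0.09. The call of mys was lost without 1151-GAL4 replicate 3, 1151-GAL4 replicate 4 or 1151>mCherry-RNAi replicate 6 (edgeR adjusted p of 0.0581 to 0.126). The integrin ligand gene tnc had 740, 1128, 1857 and 745 CPM in Idgf4+Obp56a cells, against 53.3, 86.3, 315 and 161 CPM (2.89 ± 0.23, edgeR adjusted p = 8.76e-32). Of 12 tested genes of the JNK pathway and wound response, 6 were called higher, 1 lower and 5 not, with a median of 0.81. The phosphatase gene puc, given above, was not called, and Pvf2, which was called higher, is also in the PM_1 list. The matrix metalloproteinase gene Mmp1 had 285, 460, 206 and 234 CPM in Idgf4+Obp56a cells, against 86.0, 117, 69.5 and 74.6 CPM (1.65 ± 0.29, edgeR adjusted p = 7.92e-07), and Mmp2 was called too (1.76), though without a UMI in 1151>mCherry-RNAi replicate 6. Of the PDGF- and VEGF-related pathway, the ligand genes Pvf2 and Pvf1 (3.39 ± 0.55, edgeR adjusted p = 3.03e-08) and the receptor gene Pvr (1.83) were called higher, Pvr no longer without the pooled unit (edgeR adjusted p = 0.144). The third ligand gene, Pvf3, did not pass the filter on low counts and was not tested, with 26 UMIs in 18 Idgf4+Obp56a cells (126 CPM, against 17.8 CPM in other epithelial cells). The Fos gene kay had 363, 418, 413 and 234 CPM, against 95.3 to 141 CPM (1.33 ± 0.28, edgeR adjusted p = 4.61e-05). The cell death gene hid was the one called lower. It had 117, 104, 103 and 179 CPM in Idgf4+Obp56a cells and 383, 455, 470 and 441 CPM in other epithelial cells (-1.80 ± 0.33, edgeR adjusted p = 1.3e-06).

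Of 25 tested genes that pattern the disc proper, 12 were called lower, 2 higher and 11 not, with a median log2 fold change of -1.32. The POU factor gene nub (FBgn0085424, 2L:12587625-12628135, plus strand), which marks wing and hinge, had no UMI among the 207157 of all Idgf4+Obp56a cells, against 71.1, 54.8, 68.2 and 78.9 CPM in other epithelial cells, and was at least 4.66-fold lower (floor of 3 UMIs over all Idgf4+Obp56a cells). The zinc finger gene klu had no UMI in 2 units and at most 27.6 CPM in the others, against 176, 187, 318 and 294 CPM (-3.68 ± 0.54, edgeR adjusted p = 9.32e-10). The selector gene vg had 38.9, 20.9, 0 and 27.6 CPM, against 140, 129, 277 and 224 CPM (-2.71 ± 0.51, edgeR adjusted p = 3.73e-06). The dorsal selector ap (-2.35), salm (-1.47) and the Iroquois gene mirr (-1.54) were also called lower, salm no longer without the pooled unit (edgeR adjusted p = 0.0733). The exceptions were tup, a LIM homeodomain gene of the notum, with 272, 104, 206 and 110 CPM against 30.5, 37.5, 55.3 and 39.7 CPM (2.04 ± 0.40, edgeR adjusted p = 1.19e-05), and the FGF gene bnl (1.20, edgeR adjusted p = 0.0436). A single cell held 30.6% of the tup UMIs, and its call was lost without 1151-GAL4 replicate 3 (1.34, edgeR adjusted p = 0.186). The units of bnl overlapped, and its call was lost without 1151-GAL4 replicate 3 (0.50, edgeR adjusted p = 0.79), 1151-GAL4 replicate 4 (0.174) or 1151>mCherry-RNAi replicate 6 (0.0687).

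**Figure D3:**
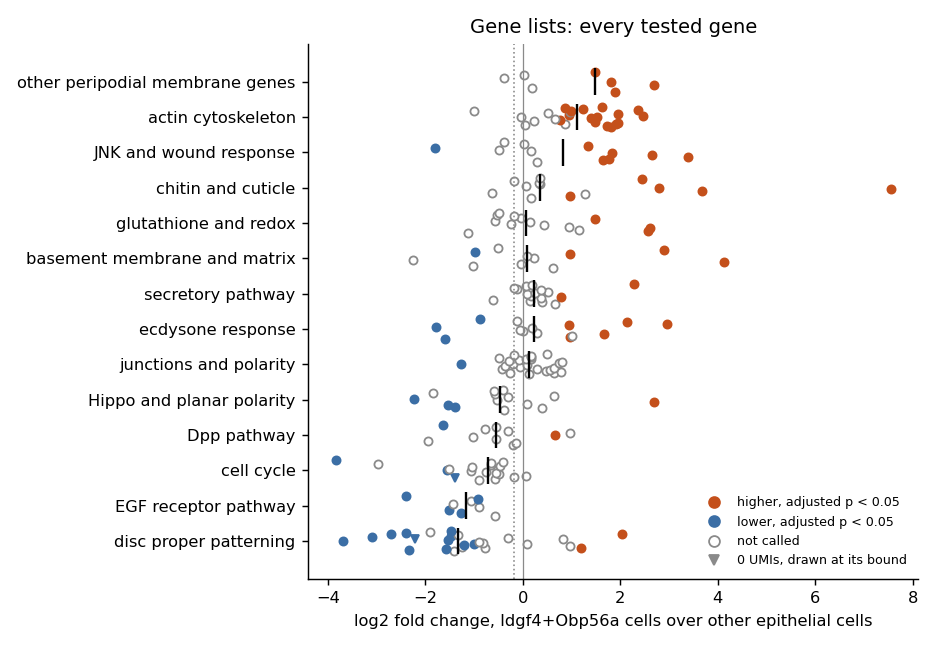
Log2 fold change of every tested gene (x axis, Idgf4+Obp56a cells over other epithelial cells) in 14 gene lists (y axis). Filled points were called (orange higher, blue lower), open points were not, triangles had no UMI in Idgf4+Obp56a cells and stand at their bound, black bars are list medians and the dotted line the median of all tested genes, -0.17. The actin list has its median at 1.11 and the disc proper patterning list at -1.32.

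Signalling genes were called in both directions, where 6.14% of all tested genes were called higher and 5.21% lower. Of 8 tested genes of the EGF receptor pathway, 4 were called lower and 4 were not, with a median of -1.17. They were the ligand gene vn (-2.41), whose units overlapped, the feedback inhibitor genes kek1 (-1.51) and sty, and ed, a homophilic adhesion protein that antagonises the receptor, with 753, 480, 309 and 689 CPM against 1256, 1469, 1201 and 1287 CPM (-1.27 ± 0.25, edgeR adjusted p = 1.7e-05). Of 14 tested genes of the Hippo pathway and planar polarity, fj was called higher, while the atypical cadherin gene ds (-1.53), the myosin gene d (-1.39) and the receptor gene fz (-2.23) were called lower. The units of d overlapped. Of 11 tested Dpp pathway genes, the glypican gene dally was called higher by a small amount (0.65, edgeR adjusted p = 0.0468), the receptor gene tkv lower (-1.64), and 9 were not called. Several of these calls depended on single units. Those of vn and d were lost without the pooled unit or 1151-GAL4 replicate 3 (edgeR adjusted p of 0.0501 to 0.198), that of ds without either 1151-GAL4 replicate (0.188 and 0.0526), that of tkv without 1151-GAL4 replicate 4 (0.16), and that of dally when any 1 unit was left out (0.0744 to 0.541).

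Of 14 tested ecdysone response genes, 5 were called higher, 3 lower and 6 not, with a median of 0.23. The ecdysone receptor gene EcR had 441, 355, 413 and 510 CPM in Idgf4+Obp56a cells and 192, 202, 192 and 214 CPM in other epithelial cells (0.97 ± 0.26, edgeR adjusted p = 0.00282). The ecdysone-induced factor genes Eip74EF (1.65) and Sox14 (2.14), the importer gene Oatp74D and ImpL2 (0.94), an insulin-binding antagonist, were the others called higher. Blimp-1 (-1.61), ImpE3 (-1.77) and crol were called lower. EcR and Eip74EF lost their calls without the pooled unit or 1151-GAL4 replicate 3 (edgeR adjusted p of 0.0581 to 0.134), and ImpL2, whose units overlapped, without the pooled unit (0.172) or 1151-GAL4 replicate 4 (0.27).

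Of 18 tested cell cycle genes, 3 were called lower and 15 not, with a median of -0.71. CycB had no UMI in Idgf4+Obp56a cells and was at least 2.63-fold lower, the Cdc25 phosphatase gene stg had 3 UMIs, 0.0801 times the level of other epithelial cells (exact 95% interval 0.0165 to 0.234), and PCNA fell (-1.56, edgeR adjusted p = 0.0183). Without the pooled unit or 1151-GAL4 replicate 3, the calls of CycB (edgeR adjusted p = 0.0607 and 0.105) and PCNA (0.0586 and 0.424) were lost. By fitted fold change, CycB and nub were among the 10 largest called decreases, an order that rests on genes without a UMI in Idgf4+Obp56a cells, whose bounds are smaller than the decrease of stg, a gene outside the 10. The others were Notum, which encodes a Wnt-deacylating enzyme (at least 2.99-fold lower), with CG13023, WRNexo, CG13004, CG33993 and RhoGEF3, which also had no UMI and were at least 1.90- to 3.10-fold lower, and CG17278 and CG14257, each with 1 UMI and 0.0491 (0.00124 to 0.274) and 0.0494 (0.00125 to 0.276) times the level of other epithelial cells. The calls of Notum, CG13023, WRNexo, CG13004, CG33993 and RhoGEF3 were lost without 1151-GAL4 replicate 3 (edgeR adjusted p of 0.0561 to 0.2), and those of all of these except CG13023 also without the pooled unit (0.0747 to 0.141). Without 1151-GAL4 replicate 4, the calls of CG13023 (edgeR adjusted p = 0.0524), CG13004 (0.0546), CG33993 (0.0748) and RhoGEF3 (0.109) were lost. Of 81 tested ribosomal protein genes, 4 were called lower and 77 not, with a median of -0.39. This count is near the 5.21% of all tested genes called lower. Of 14 tested glutathione and redox genes, 3 were called higher and 11 not, with a median of 0.06, and of 16 secretory pathway genes, 2 were called higher and 14 not, with a median of 0.22.

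Markers of other cell types were read out beside these results. Of 7 listed tracheal genes, 5 could be tested and 2, serp and Mmp1, were called higher. Their summed level was 869 to 1753 CPM per unit in Idgf4+Obp56a cells and 321 to 430 CPM in other epithelial cells, while the defining tracheal genes trh and btl had 3 UMIs each in the Idgf4+Obp56a cells (14.5 CPM, against 10.1 CPM of trh and 3.13 CPM of btl in other epithelial cells). Of 7 hemocyte genes, Hml, Pxn, He, NimC1 and eater had no UMI in Idgf4+Obp56a cells, crq was called higher (1.69, 13 UMIs in 9 cells), and the sum was 41.8 to 103 CPM, against 22.3 to 34.8 CPM. Of 6 measured fat body genes, 4 had no UMI and the list summed to 2 UMIs. Neuronal and glial lists had 16 and 22 UMIs in all Idgf4+Obp56a cells. Myoblast genes outside the gate summed to 376 to 627 CPM, against 389 to 485 CPM, with babos called higher (1.39). The call of crq was lost without 1151>mCherry-RNAi replicate 6 (edgeR adjusted p = 0.176) and that of babos without the pooled unit (0.128). Ubx, Gasp and Cpr12A, all called higher, are also among the genes by which the study marked a tracheal cluster, and Ance among those of a notum cluster. Of other genes of that tracheal cluster, Phk-3 was called lower (-1.51) and Cpr49Ag had no UMI in Idgf4+Obp56a cells, against 181 UMIs (12.3 CPM) in other epithelial cells. A count of 0 in all Idgf4+Obp56a cells allows up to 14.5 CPM, so it cannot show a lower level of Cpr49Ag. Phk-3 was also given by the study for epithelial clusters of the hinge and notum. Its lower level is thus no measure of tracheal cells. The part of these other cell types in the changes of Ubx, Ance, serp, Mmp1, Gasp and the other chitin genes was not tested.

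A second comparison used epithelial cells chosen by drm, Mp and knrl, of which knrl is also known from the hinge. Idgf4+Obp56a cells held 2300 UMIs per cell, against 3734 in these 164 other epithelial cells, which had at least 3 UMIs of the 3 genes together. They had 426 UMIs of drm, 149 of knrl and 118 of Mp, and 92, 32 and 21 of the 164 cells held at least 3 UMIs of the named gene by itself. Of 928 genes tested, 101 (10.9%) were called higher in Idgf4+Obp56a cells and 49 (5.28%) lower. The comparison shares the Idgf4+Obp56a cells with the one above, so each value is only set beside it. Cpr49Ac had a log2 fold change of 5.83 (7.55 against all other epithelial cells), CG6357 2.96 (3.58), GstD1 2.34 (2.57), fj 2.51 (2.68), Act5C 1.71 (1.72) and sn 2.42 (2.36), all called by edgeR. Ance was nearer in these cells (0.90, against 1.88, edgeR adjusted p = 0.00349), and Pvf2 (0.75, adjusted p = 0.0647), Cpr12A (0.95, adjusted p = 0.0917) and mirr (-0.36, adjusted p = 0.56) were not called by edgeR in this comparison. Phk-3 (-2.25), CG4914 (-2.21), klu (-2.93), ImpE3 (-1.93) and hid (-1.50) were lower than in the drm, Mp and knrl cells as well.

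Levels of several genes were followed over the number of Idgf4 and Obp56a UMIs, in 281 cells with 1, 53 with 2, 38 with 3 to 4 and 52 with 5 or more, which held 2423, 2490, 1710 and 2757 UMIs per cell. Cpr49Ac had 199, 837, 2086 and 4571 CPM in this order, GstD1 1156, 2344, 4217 and 6347 CPM, and CG6357 146, 411, 788 and 1123 CPM. All of these increased at each step. Mp had 79.7, 205, 324 and 400 CPM and Past1 112, 152, 572 and 660 CPM, while stg had 205, 145, 46.3 and 0 CPM, and drm had 158, 167, 294 and 232 CPM with no steady order. The cells with 2 UMIs, just outside the threshold, lay between those with 1 and those with 3 to 4 UMIs in each of these 7 genes. Others did not follow this order. Cpr12A had 48.7, 670, 340 and 154 CPM, Nox 25.1, 91.3, 30.9 and 126 CPM, Phk-3 912, 1903, 216 and 190 CPM and Cpr49Ag 198, 997, 0 and 0 CPM, so that all 4 were higher in cells with 2 UMIs than in the neighbouring bins. The bins are a description, since the rule used their axis.

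**Figure D4:**
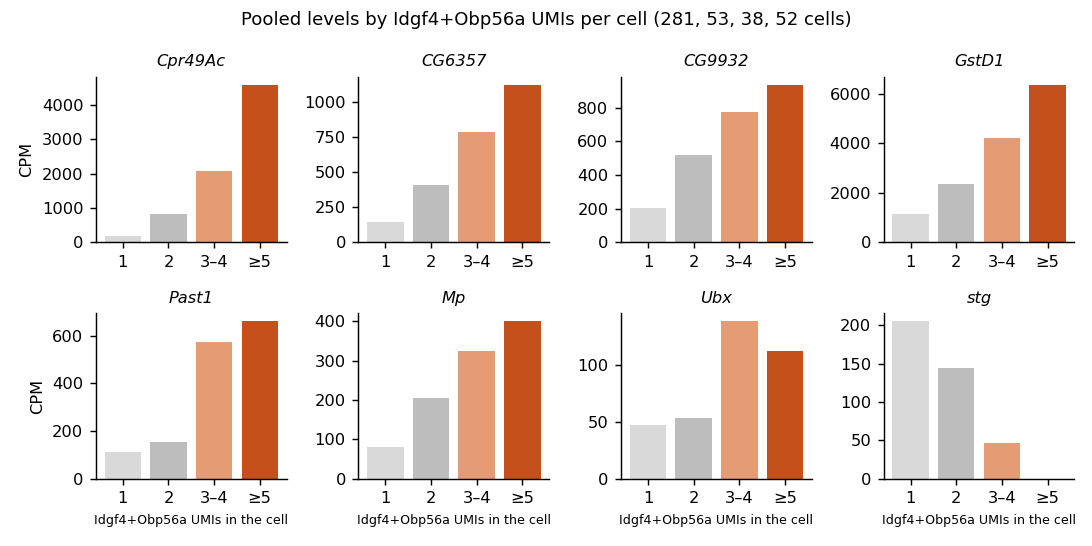
Pooled level (CPM, y axis) of 8 genes in cells with 1, 2, 3 to 4 and 5 or more Idgf4 and Obp56a UMIs (x axis; grey bars lie outside the threshold, orange inside). Cpr49Ac increased at each step to 4571 CPM and stg decreased at each step to 0 CPM; bars pool all cells of a bin and have no replicate error.

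The 38 cells with an Obp56a UMI and the 52 without one differed in a few genes, chosen after their values were seen and given without a test. Median depth was 1167 UMIs in cells with and 1570 in cells without Obp56a, and the 2 sets held 52655 and 154502 UMIs in all. Of the 112 UMIs of Cpr65Ec, 97 lay in cells with Obp56a (1842 CPM) and 15 in cells without (97.1 CPM). This held within 1151-GAL4 replicate 3 (71 and 3 UMIs, in 6 and 2 cells). It also held within 1151-GAL4 replicate 4 (24 and 3 UMIs, in 3 and 1 cells), so few cells carry the difference. In 1151>mCherry-RNAi replicate 6 the counts were 2 and 0 UMIs, from 10 cells with and 1 without Obp56a. They went the other way in 1151>mCherry-RNAi replicates 7 (0 and 5 UMIs) and 8 (0 and 4 UMIs), each with 1 cell with Obp56a. CG4382 had 34 UMIs in cells with Obp56a (646 CPM) and 1 in cells without (6.47 CPM), 32 of the 34 from 1151-GAL4 replicate 3. In the other direction, drm had 8 UMIs in cells with Obp56a (152 CPM) and 44 in cells without (285 CPM). Cpr49Ac had 410 and 376 UMIs in the same order, which were 7787 and 2434 CPM. Obp56a was found in 10 of 11 Idgf4+Obp56a cells of 1151>mCherry-RNAi replicate 6, in 15 of 29 of 1151-GAL4 replicate 3 and in 6 of 21 of 1151-GAL4 replicate 4.

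The libraries labelled 1151>Ama-RNAi were not used by the rule and share no cell with the fit. They held 19 Idgf4+Obp56a cells and 2669 other epithelial cells, fewer than 10 Idgf4+Obp56a cells in each library, so their values were pooled and not tested. Ama itself could be read only in the few remaining myoblast cells (5, 8 and 20 cells), at 108, 382 and 181 CPM. Wild-type libraries had 25.4 to 201 CPM. These cells are too few to judge the knockdown, for which the study reported a loss of Ama expression in its own set of remaining myoblasts. The libraries are therefore named by their label. Cpr49Ac had 1147, 723 and 4392 CPM in their Idgf4+Obp56a cells (replicates 1, 4 and 5), against 19.6, 9.82 and 28.3 CPM in other epithelial cells. GstD1 had 2571, 3255 and 3733 CPM, against 473, 802 and 743 CPM, and Act5C 8029, 11573 and 10540 CPM, against 2225, 2696 and 3189 CPM. In each of the 3 genes every library was higher in Idgf4+Obp56a cells. These cells numbered 9, 3 and 7 in replicates 1, 4 and 5 and held 25283, 2765 and 18217 UMIs. Single values of replicate 4 therefore rest on few UMIs. A gene was counted when at least 3 UMIs would be found in these 19 cells at its level in other epithelial cells, a choice that does not use the UMIs of the Idgf4+Obp56a cells. Of the 212 genes called higher in wild type, 88 were counted, and 58 of these (65.9%) were more than 2-fold higher, against 8.18% of all 1639 genes counted. Of the 180 called lower, 162 were counted and 88 (54.3%) were more than 2-fold lower, against 16.2% of all. Of the 20 largest increases only 3 reached this level in other epithelial cells, and the 20 genes had 1 to 111 UMIs in the 19 cells. Ubx and Sox14 had no UMI there.

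**Figure D5:**
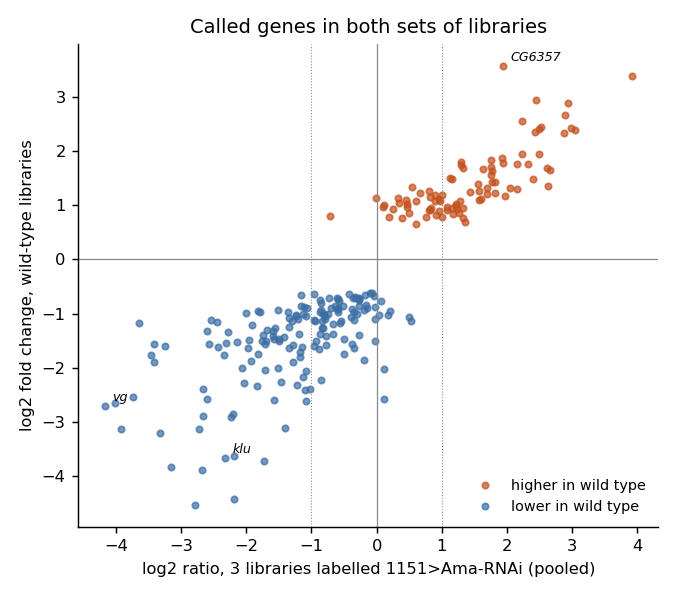
Log2 ratio in the 3 libraries labelled 1151>Ama-RNAi, pooled (x axis), beside the log2 fold change in wild-type libraries (y axis), for genes called in wild type that had at least 3 UMIs foreseen at the level of other epithelial cells and a UMI in wild-type Idgf4+Obp56a cells (orange higher, blue lower in Idgf4+Obp56a cells). Of 88 orange genes, 86 lie right of 0 on the x axis, and 58 lie right of the dotted line at a 2-fold difference.

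Without 1151-GAL4 replicate 3, the fit of Idgf4+Obp56a cells against other epithelial cells called 122 genes higher and 88 lower, 119 and 81 of them shared with the full fit, and without 1151>mCherry-RNAi replicate 6 it called 180 higher and 316 lower (6504 genes tested, against 3455 in the full fit). With cells above 2 times their library's median UMIs left out it called 70 higher and 111 lower (1491 genes tested), and with only Idgf4+Obp56a cells that pass the epithelial gate it called 106 higher and 75 lower.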

How the data were processed

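For each of the 11 Drop-seq libraries the authors deposited unnormalized UMI counts, genes by barcodes, after aligning reads with STAR to BDGP6 and counting with the Drop-seq tools; barcodes had not been filtered on gene number. The Idgf4+Obp56a cells, their comparison cells and the gene lists were chosen with earlier results of these data known. UMI counts were summed per unit and class, and tested with edgeR 4.0.16 in R 4.3.3 (TMM scaling, filterByExpr, quasi-likelihood test, unit as a block, Benjamini-Hochberg over all genes tested, threshold 0.05), leaving out the 10 gate genes; fold changes are Idgf4+Obp56a cells over other epithelial cells. The block is the unit, a library or the pooled sum of 5 libraries of both lines, since both classes come from the same droplets. Libraries are separate samples in the labels. The edgeR p-values set a difference against a spread between units that edgeR estimates largely by sharing information across genes. They do not measure the spread of 1 gene over its own 4 units, which is shown by the values per unit. The spread between units may be technical. CPM are UMIs per 1000000 UMIs of the class and unit, not corrected for gene length. Shares were compared by exact permutation with scipy 1.17.1. Named were the 20 largest called increases with at least 20 UMIs in Idgf4+Obp56a cells and the 10 largest called decreases, each changed the same way in every unit, and genes of the lists. In the libraries labelled 1151>Ama-RNAi, a gene was counted when its level in other epithelial cells foresaw at least 3 UMIs in the Idgf4+Obp56a cells, a filter chosen after seeing the data, and 0.5 UMIs were added before its log2 ratio. Coordinates and FlyBase IDs are from Ensembl's BDGP6.54 annotation, matched by symbol. The alternatives were DESeq2 1.42.0, another scaling, filters on genes and cells, thinning of every cell to 400 UMIs, other thresholds, leaving out units, and fits within a line. Scripts were tested on simulated data. There, the fit against other epithelial cells called 36.7% of genes set to a log2 fold change of 1 and 35.9% of those set to -1. It called 93.9% of those set to 2 and 62.2% of those set to -2. A gene that was not called is therefore not shown to be unchanged.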

Additional observations from a re-analysis of the deposited data

Results flagged for a closer look

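In 12 of 89 groups of 4 units examined, 1 unit stood apart from the rest in the level of a named gene in Idgf4+Obp56a cells. Chance sets about 1 in 20 such groups apart when the 4 values are equally precise. The units differ in depth and some counts are 0 or 1 UMI, so that rate does not apply and the 12 are not read as an excess. In 8 of the 12 it was 1151>mCherry-RNAi replicate 6, which held 9695 UMIs of these cells. There, Nox had 722 CPM (nearest unit 90.8), fj 2579 CPM (1025), cher 722 CPM (221), mys 1135 CPM (397), vn 206 CPM (20.9) and Sox14 206 CPM (83.6), while salm had 0 CPM (62.7) and kek1 0 CPM (188). CG9192 stood apart in 1151-GAL4 replicate 4 with 167 CPM (nearest 104). CG17278 and CG14257 each had 13.0 CPM in 1151-GAL4 replicate 3 and rn had 13.8 CPM in the pooled unit, in each case a single UMI beside 0 in the other units.

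With libraries pooled within their line, a fit chosen after seeing the data, the difference of Idgf4+Obp56a cells from other epithelial cells was itself compared between 1151>mCherry-RNAi and 1151-GAL4 libraries, and 7 of 3354 genes were called. Of the genes named above, the log2 fold change of kek1 differed by -3.51 (edgeR interaction, adjusted p = 0.0181) and that of tnc by -1.50 (adjusted p = 0.0415).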

How the results depend on the processing

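The fit of Idgf4+Obp56a cells against other epithelial cells called 212 genes higher and 180 lower. Leaving out 1 unit at a time gave 122 to 180 higher and 88 to 316 lower, the lowest counts without 1151-GAL4 replicate 3 and the highest without 1151>mCherry-RNAi replicate 6 (6504 genes tested, against 3455 in the full fit). The other counts past 1.5 times were 106 higher and 75 lower (only cells that pass the epithelial gate), 75 and 80 (every cell thinned to 400 UMIs, 1212 genes tested), 70 and 111 (cells above 2 times the library's median UMIs left out, 1491 genes tested), 35 and 58 (1151>mCherry-RNAi libraries only), and, for lower genes alone, 310 (no filter on low counts, 15909 genes tested), 111 (no replicate block) and 284 (1151-GAL4 libraries only, 5372 genes tested). The split of calls, 54.1% higher, became 32.9% with no filter on low counts, 36.3% without 1151>mCherry-RNAi replicate 6, 37.6% with 1151>mCherry-RNAi libraries only, 38.7% with deep cells left out, 39.1% with 1151-GAL4 libraries only, 44.3% with libraries pooled by line and 48.3% with upper-quartile scaling, and reached 61.4% without 1151-GAL4 replicate 4. DESeq2 called 158 and 121. Against drm, Mp and knrl cells, 150 genes were called in either direction, 71 with no replicate block, 100 with DESeq2, and 80 to 178 when a unit was left out.

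The share difference of 1151>mCherry-RNAi minus 1151-GAL4 libraries ran from -0.257 to -0.0607 percentage points without single libraries and turned to 0.0496 after thinning; that of libraries labelled 1151>Ama-RNAi minus wild type ran from -0.0286 to 0.0857, and was -0.330 over epithelial cells only and -0.00327 after thinning. No permutation p passed 0.05. Of 1373 values of 87 genes under the alternatives, 1161 kept direction and call, 210 lost the call and 2 reversed, bnl (-1.17) and Pvr (-0.23), both with 1151>mCherry-RNAi libraries only; a further 8 had no adjusted p in DESeq2. The cause was not tested. The test in libraries labelled 1151>Ama-RNAi was not run, because none held 10 Idgf4+Obp56a cells.

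With 207157 UMIs in all Idgf4+Obp56a cells, a count of 0 allows up to 14.5 CPM, and in 1151>mCherry-RNAi replicate 6 alone up to 309 CPM.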

Other observations

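CG13044, chosen after its values were seen, was called higher in Idgf4+Obp56a cells with 57 UMIs, of which 54 lay in 1 cell of the pooled unit. It had 38.9, 0, 0 and 745 CPM in the 4 units, and it was the only 1 of the 212 genes called higher with more than 50% of its UMIs in a single cell. Over the 212 genes, the cell with the most UMIs held a median of 11.4% of a gene's UMIs, and 205 of the genes were found in at least 10 cells.

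CG2444, also chosen after its values were seen and not tested because of its low counts, had 43 UMIs in Idgf4+Obp56a cells with an Obp56a UMI and 19 in those without, and 39 and 6 within 1151-GAL4 replicate 3. Within 1151-GAL4 replicate 4 it had 4 and 10 UMIs, from 6 and 15 cells.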
